A study of Rattus norvegicus with 15 samples.

Results

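The genes described here are 32 genes of protein folding in the endoplasmic reticulum (ER) and of the unfolded protein response, measured in rat liver. A gene was a member when a non-control probe of the array carried its symbol or an older alias, and the brightest probe stood for the gene. By that rule 29 of the 32 genes had a probe, among 36518 features in all. Sdf2l1, Derl2 and Xbp1 had none. Female Wistar Crl:WI rats aged 2 to 3 months were dosed daily with the phenylpyrazole insecticide fipronil, 3 mg/kg per os, over 14 days (n = 8). Control rats of the same sex, strain and age received the vehicle alone over the same days, a solution of 0.5% methylcellulose and 0.01% Tween 80 in water (n = 7). Each rat gave 1 liver fragment and 1 one-colour Agilent array. The liver fragment holds all cell types of the organ, so fewer cells of a type and less RNA per cell cannot be told apart.

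Secreted and membrane proteins are folded in the ER, and hepatocytes, which secrete most plasma proteins, carry much of it. When unfolded proteins build up there, 3 sensors of the ER membrane respond: ATF6, which is cut to release a transcription factor, IRE1 (Ern1), which splices Xbp1 mRNA, and PERK (Eif2ak3), which phosphorylates eIF2alpha and so slows translation while favouring that of ATF4. ATF6 and XBP1 raise transcription of chaperones and of ER-associated degradation, and ATF4 raises that of amino acid and stress genes such as Asns, Ddit3 and Trib3. An array reads mRNA levels only, so splicing of Xbp1 and phosphorylation of the sensors were not measured.

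Promoters of the members were examined first, because the ER stress element (ERSE) ties many of them to the same transcription factors. RefSeq windows of build GRCr8, from 250 bases before to 50 bases after each gene's start, were matched for 24 of the 32 members. The ERSE, which is CCAAT and CCACG with any 9 bases between them, searched on both strands, was found in 7 of the 24 members: Hspa5, Hsp90b1, Calr, Canx, Dnajc3, Creld2 and Xbp1. It was found in 22 of 33469 windows of the same length (0.0657%), these members included. The shorter ERSE-II, which is ATTGG, any base and CCACG, was found in Hyou1, Dnajb11 and Herpud1, and in 17 windows (0.0508%). Of the 12 folding members with a window, 6 held an ERSE, against 0 of 6 members of translocation and degradation. The UPRE core TGACGTGG was found in Hyou1, overlapping its first ERSE-II, and in 0.595% of windows. The ATF4 element (CARE), spelled TGATGNAA, was found in Herpud1 and Trib3 and in 3.98% of windows. Letters of this kind are matches and not measured binding, and the elements were first described in promoters of genes such as these. The stretches are printed for the 8 members with a probe and an ERSE or ERSE-II lying wholly before the start, since the comparison below sets these members beside their levels. The ERSE-II of Dnajb11 runs across the start, Xbp1 has no probe, and Trib3 holds a CARE alone. Capitals mark the matched elements, which read on either strand.
Hspa5, chr3:38452953-38453011, plus strand: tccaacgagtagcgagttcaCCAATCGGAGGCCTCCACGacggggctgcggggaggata
Hsp90b1, chr7:23012327-23012489, minus strand: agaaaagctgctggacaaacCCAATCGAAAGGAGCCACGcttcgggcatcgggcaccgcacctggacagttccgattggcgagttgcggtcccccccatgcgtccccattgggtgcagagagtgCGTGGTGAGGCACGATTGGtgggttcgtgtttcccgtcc
Calr, chr19:40213117-40213173, plus strand: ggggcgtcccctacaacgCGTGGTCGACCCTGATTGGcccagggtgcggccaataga
Canx, chr10:35158049-35158107, minus strand: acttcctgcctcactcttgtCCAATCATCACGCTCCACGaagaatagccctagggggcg
Dnajc3, chr15:102432514-102432572, plus strand: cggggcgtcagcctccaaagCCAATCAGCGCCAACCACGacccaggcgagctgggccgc
Creld2, chr7:121789219-121789277, plus strand: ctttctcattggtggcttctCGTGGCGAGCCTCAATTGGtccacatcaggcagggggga
Hyou1, chr8:53602671-53602824, plus strand: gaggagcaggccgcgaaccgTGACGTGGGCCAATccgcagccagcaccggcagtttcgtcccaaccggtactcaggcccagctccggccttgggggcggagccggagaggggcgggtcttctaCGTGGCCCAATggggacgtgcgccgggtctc
Herpud1, chr19:10614801-10614911, minus strand: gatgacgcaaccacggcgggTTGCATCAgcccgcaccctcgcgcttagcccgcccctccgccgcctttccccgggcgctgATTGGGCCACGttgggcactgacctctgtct
In Hspa5 the element lay 43 to 25 bases before the start. Hsp90b1 held 2 ERSEs, at 176 to 158 and 72 to 54 bases before the start. Hyou1 held 2 ERSE-IIs, and Herpud1 a CARE match upstream of its ERSE-II.

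Signal is given below as log2 processed intensity minus the 75th percentile of the same array, so that 0 is the level of the 75th percentile. Levels of different probes are not comparable, and each value is read only across rats. Arrays of fipronil rats were brighter, with a 75th percentile at 209.9 ± 25.8 (SD, n = 8) intensity units against 171.5 ± 33.3 (SD, n = 7; two-sided exact permutation p = 0.0196). Of 10 hepatocyte markers 8 were saturated on every array. A saturated value does not rise with the array, so subtracting the percentile lowers it on a brighter array, and no direction or level between the groups is read from this list. Endothelial markers had the higher mean with fipronil in 5 of 8 tested genes, against 44.3% of all features. Of these 5 genes, 4 had an unadjusted limma p under 0.05, against 6.16% of all features higher at that p. The summed intensity of the 10 listed endothelial genes ran from 6.53 to 7.46 with fipronil and from 6.22 to 6.69 with vehicle. The brightest probes weigh most in that sum, and 1 gene, Tek, was not above background on any array. Kupffer cell and macrophage markers had the higher mean in 9 of 10 tested genes, against 44.3% of all features. In that list 0 genes had an unadjusted limma p under 0.05. In none of the 9 cell type lists did a gene pass an adjusted p of 0.05 by limma. Of the plasma and B cell list, whose cells are rich in ER, Ms4a1, Jchain and Tnfrsf17 were not above background on any array. The part of array brightness and of cell composition in the values below was not tested, apart from the fit with brightness as a covariate.

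No member passed the test after 14 days of fipronil. The fit by limma with Benjamini-Hochberg adjustment called 0 of the 28 tested members, against 176 of 20300 features over the array (0.867%; 0.552% higher, 0.315% lower). At an unadjusted p under 0.05 limma gave 2 members, Herpud1 higher and Eif2ak3 lower, against 17.5% of all features (6.16% higher, 11.3% lower). The ranges of the groups overlapped for 28 of 28 members, whereas 0.621% of all features had groups that did not overlap. No member was called under any of the 30 to 31 alternative settings each was put through. Those settings called 0.892% of features in the authors' deposited value table, 0.764% after normexp and quantile normalization, 0.975% with slide as a block, 0.443% with the replicate number as a block and 0.192% with array brightness as a covariate. Of the 35 member probes tested, 0 were called. A p that misses the threshold does not show that levels were the same. The 95% interval of the difference lay within 1.5-fold in either direction for 24 of the 28 members, and within 2-fold for 27. The spread between rats of a member had a median SD of 0.24, close to the 0.26 of all features. The median difference was 0.06 over the members and -0.03 over all features. Above 0 were 20 members, with 8 below, against 44.3% of all features above 0. With array brightness as a covariate 10 members lay above 0 and 18 below, against 47.4% of all features above 0.

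**Figure D1:**
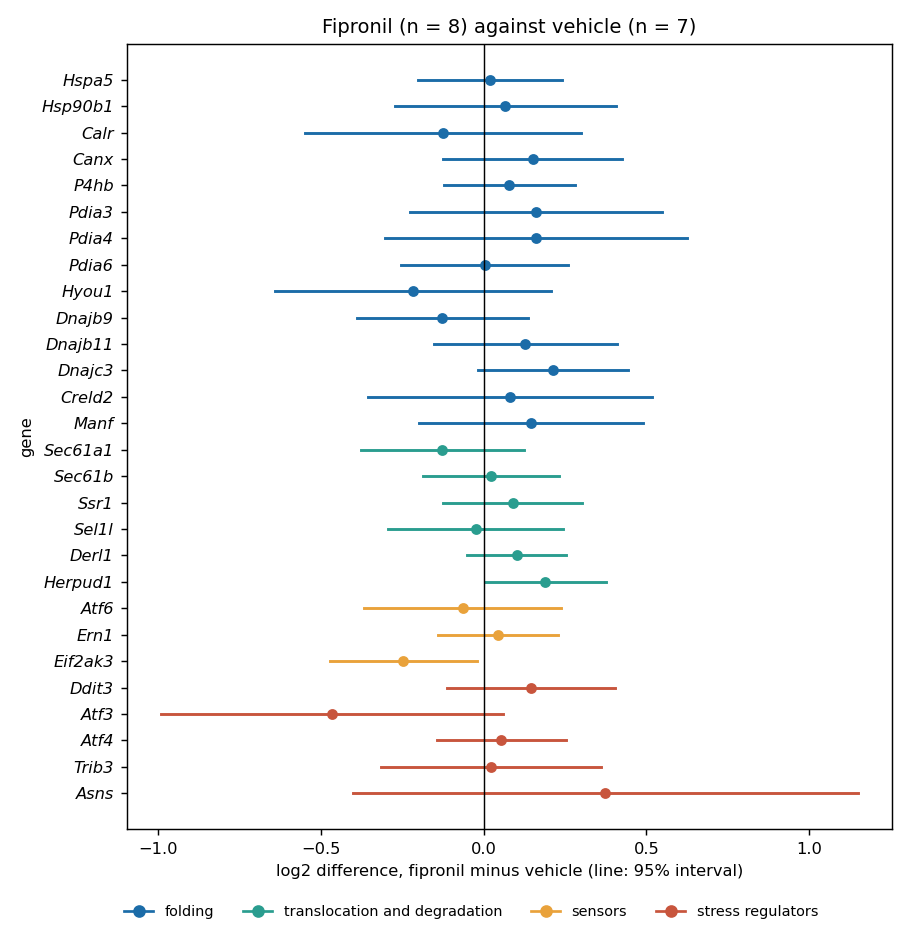
Log2 difference between fipronil (n = 8) and vehicle (n = 7) for the 28 tested members, as points, with the 95% interval of the limma fit as lines, coloured by role. The points lie between -0.47 (Atf3) and 0.37 (Asns), and the intervals of all members but Eif2ak3 and Herpud1 cross 0.

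Hspa5 (BiP, the major ER chaperone of the Hsp70 family) did not separate the groups. Its signal was lowest at 7.24, median 7.51 and highest at 7.99 in fipronil rats, and 7.41, 7.49 and 7.61 in vehicle rats. Fipronil rats lay both above (2 rats) and below (3 rats) the vehicle range. The log2 difference was 0.02 (SE 0.10, 95% interval -0.20 to 0.24; limma adjusted p = 0.950), that is, a fold of 1.01 with an interval of 0.870 to 1.18. Its probe lies at chr3:13787739-13787798 in build rn4 and was saturated on 1 array, that of fipronil rat 2, which gives only a lower bound there; no other member was saturated on any array. Leaving that rat out, the difference was -0.05.

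Hsp90b1 (GRP94, the Hsp90 of the ER) ran from 5.83 over a median of 5.93 to 7.13 with fipronil, and from 5.91 over 6.07 to 6.18 with vehicle. Only fipronil rat 2 stood far above the vehicle range. The difference was 0.07 (SE 0.16; limma adjusted p = 0.875), and -0.08 without that rat. Dnajc3 (p58IPK, a co-chaperone of BiP) had the smallest p of the folding members. Its signal ran from 4.64 over 4.99 to 5.23 with fipronil and from 4.45 over 4.76 to 5.10 with vehicle. The difference of 0.21 (SE 0.11) did not pass (limma adjusted p = 0.322), with 7 of 8 fipronil rats above the vehicle mean. It had the same sign on each of the 4 slides, as did 5 of the 28 tested members in all. The slide values are parts of the same data and not a separate test. With array brightness as a covariate the Dnajc3 difference was 0.08 (limma adjusted p = 0.906).

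Canx (calnexin, a lectin chaperone of glycoproteins) ran from -0.38 over -0.25 to 0.42 with fipronil and from -0.64 over -0.13 to -0.10 with vehicle. The medians and means therefore order differently, and the difference of means was 0.15 (limma adjusted p = 0.590), or 0.07 without fipronil rat 2. Hyou1 (GRP170, a nucleotide exchange factor of BiP) ran from 4.60 over 4.98 to 5.66 against 4.62 over 5.51 to 5.75, a difference of -0.22 (SE 0.20; limma adjusted p = 0.621), or -0.33 without vehicle rat 6. Dnajb9 (ERdj4, a BiP co-chaperone that restrains IRE1) ran from 1.81 over 2.07 to 2.54 against 1.94 over 2.13 to 2.59, a difference of -0.13 (limma adjusted p = 0.644), or -0.067 without vehicle rat 1. Both genes had the lower median with fipronil, and in both the groups overlapped widely. Across the alternative settings the difference ran from -0.33 to -0.14 for Hyou1 and from -0.31 to -0.03 for Dnajb9. For Canx it ran from -0.04 to 0.20.

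The other folding members had differences between -0.12 and 0.16. These were Calr, the lectin chaperone calreticulin; the disulfide isomerases P4hb, Pdia3, Pdia4 and Pdia6; Dnajb11, a BiP co-chaperone; Creld2; and Manf, a secreted ER stress protein. Calr was measured in 12 rats and P4hb in 13, because outlier spots were left out. Over the 14 folding members the median difference was 0.08, with 11 above 0 and 3 below, against 44.3% of all features above 0. The median was -0.02 without fipronil rat 2 and -0.066 with array brightness as a covariate, so its sign depended on that rat and on the covariate. A probe found by the gene number of Sdf2l1, a BiP-associated protein, outside the member rule, gave medians of 4.50 and 4.14 and a difference of 0.34 (SE 0.20; limma adjusted p = 0.387).

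Herpud1, which helps to assemble the degradation complex of the ER membrane, stood highest against vehicle among the 6 tested members of translocation and degradation. Its signal ran from 6.10 over 6.31 to 6.64 with fipronil and from 6.02 over 6.17 to 6.31 with vehicle, and 3 of 8 fipronil rats lay above the vehicle range. The difference was 0.19 (SE 0.09, 95% interval 0.0034 to 0.37; limma adjusted p = 0.277). Herpud1 was also among the 5 members with the same sign on each of the 4 slides, and a further Herpud1 probe gave 0.12. The probe lies at chr19:11036709-11036768 (rn4).

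Derl1, a channel component of ER-associated degradation, ran from 3.56 over 3.74 to 3.86 against 3.43 over 3.67 to 3.69. Of the 8 fipronil rats 5 lay above the vehicle range, with a difference of 0.10 (SE 0.07; limma adjusted p = 0.497). Sec61a1, the pore of the translocon, ran from 0.26 over 0.69 to 0.99 against 0.48 over 0.83 to 1.07, a difference of -0.13 (limma adjusted p = 0.625), or -0.067 without fipronil rat 6. Across the alternative settings the Sec61a1 difference ran from -0.23 to -0.05. Sec61b, Ssr1 and Sel1l lay between -0.02 and 0.09. Edem1, which hands misfolded glycoproteins to degradation, was not tested, because outlier spots left 3 vehicle values at its brightest probe. Its other probes gave 0.09 and 0.10 (limma adjusted p = 0.764 and 0.788 over all probes). A probe described only as similar to a Der1-like protein gave 0.04 (limma adjusted p = 0.852).

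Of the 3 sensors, Eif2ak3 (PERK) had the smallest unadjusted p of all members. Its signal ran from -1.96 over -1.66 to -1.25 with fipronil and from -1.54 over -1.37 to -1.17 with vehicle. Of the 8 fipronil rats 5 lay below the vehicle range, and 7 lay below the vehicle mean. The difference was -0.25 (SE 0.11, 95% interval -0.47 to -0.02; unadjusted p = 0.0340), which did not pass after adjustment by limma (adjusted p = 0.248). Eif2ak3 was also among the 5 members with the same sign on each of the 4 slides. The size of the Eif2ak3 difference depended on the processing. It was -0.09 with normexp and quantile normalization, -0.15 in the authors' deposited value table and -0.37 with array brightness as a covariate. The probe of Eif2ak3 spans chr4:104075118-104077133 (rn4).

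Ern1 (IRE1) ran from 1.61 over 1.81 to 1.98 against 1.57 over 1.74 to 2.09, with every fipronil rat inside the vehicle range, and differed by 0.04 (SE 0.09; limma adjusted p = 0.844). Atf6 ran from 1.15 over 1.64 to 1.95 against 1.21 over 1.79 to 2.10 and differed by -0.06 (SE 0.14; limma adjusted p = 0.863).

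Among the stress regulators, Atf3, a bZIP factor induced by many stresses, had the lower values with fipronil but overlapped widely. It ran from -2.07 over -1.78 to -0.85 with fipronil and from -2.44 over -1.13 to -0.38 with vehicle, a difference of -0.47 (SE 0.25; limma adjusted p = 0.343). Vehicle rat 7 was the lowest of all rats. The Atf3 difference was -0.21 with normexp and quantile normalization and -0.66 with array brightness as a covariate. Ddit3 (CHOP, a pro-apoptotic factor downstream of PERK) ran from -0.08 over 0.36 to 0.86 against 0.03 over 0.22 to 0.52, a difference of 0.14 (SE 0.12; limma adjusted p = 0.581), or 0.074 without fipronil rat 1. Atf4 ran from 5.56 over 5.79 to 6.22 against 5.57 over 5.76 to 5.97, a difference of 0.05 (SE 0.09; limma adjusted p = 0.814). Trib3, a pseudokinase induced by ATF4 and CHOP, ran from 0.64 over 1.23 to 1.53 against 0.62 over 1.28 to 1.56, a difference of 0.02 (limma adjusted p = 0.962). Across the alternative settings the Ddit3 difference ran from 0.07 to 0.25.

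Asns, asparagine synthetase and an ATF4 target, was the most uneven member. It ran from -1.89 over -1.33 to 0.94 with fipronil and from -2.04 over -1.26 to -0.94 with vehicle. Fipronil rats 3 and 1 stood above all vehicle rats at 0.94 and -0.17, while the fipronil median lay below that of vehicle. The difference was 0.37 (SE 0.37, 95% interval -0.40 to 1.15; limma adjusted p = 0.644), and 0.09 without fipronil rat 3.

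**Figure D2:**
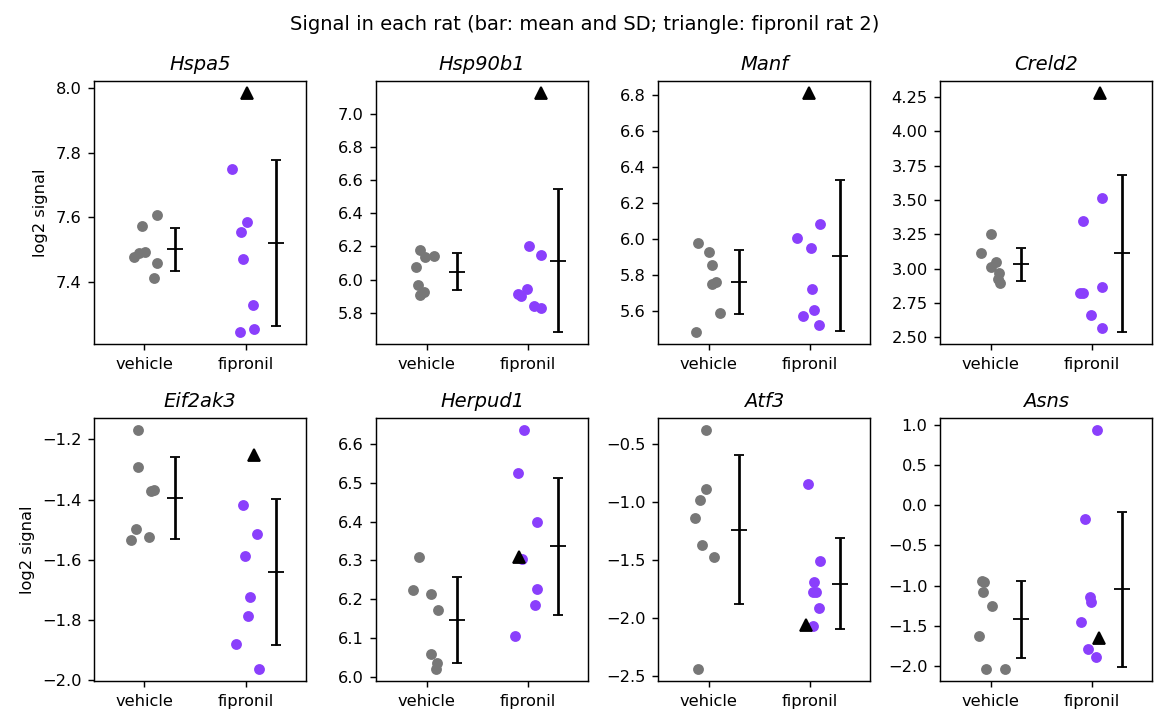
Log2 signal in each rat for 8 members, vehicle (grey, n = 7) and fipronil (purple, n = 8), with the mean and SD as bars beside the points and fipronil rat 2 as a triangle. Rat 2 is the top point for Hspa5, Hsp90b1, Manf and Creld2, and lies at -2.06 near the low end for Atf3.

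Chaperones and regulators could be set side by side only as descriptions. The median difference was 0.08 over 14 folding members, 0.06 over 6 members of translocation and degradation, -0.06 over 3 sensors and 0.05 over 5 stress regulators. The 9 tested members with an ERSE or ERSE-II, Dnajb11 included, had a median of 0.08, with 7 above 0 and 2 below. All of them but Herpud1 are folding members, so this median largely repeats that of the folding members.

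Among single rats, fipronil rat 2 carried the highest folding gene signals. It was the highest of the 8 fipronil rats in 13 of 14 folding members, against 3050 of 20300 features over the array. It was also the lowest of the 8 in 4811 of the 20300 features, and in 0 of the folding members. Against the vehicle mean its folding members had a median deviation of 0.66, all 14 above 0, and 0.74 with normexp background correction and quantile normalization. The other 7 fipronil rats had medians between -0.20 and 0.27, and the 7 vehicle rats between -0.15 and 0.22. In the same rat the 6 members of translocation and degradation had a median of 0.09, the 3 sensors 0.04 and the 5 stress regulators -0.23. Its array was the brightest, with a 75th percentile of 269.5 against 115.4 to 214.4 in vehicle rats. Across the arrays, after removal of group means, the signal of 12 of 14 folding members correlated positively with that brightness (r up to 0.59 for Pdia3, 0.51 for Manf and 0.44 for Hsp90b1; 12 to 15 arrays each, which also set the scaling). Fipronil rat 2 is itself among these arrays, and r without it was not measured. The share of all features with a positive r was not measured either, so the count is a description only. How much of the deviation of rat 2 goes with brightness was not tested. No record of the labels sets this rat apart from the others.

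Further probes gave the same order for this rat. They read the same RNA on the same array under the same scaling, so they cannot tell the rat apart from its array. A second Hsp90b1 probe stood 0.51 above the vehicle mean in rat 2, where the other fipronil rats lay between -0.25 and 0.29. The second Manf probe stood 0.88 above it, with the others between -0.34 and 0.32, and that of Hyou1 0.78 above it, with the others between -0.78 and 0.24. The second Dnajb9 probe stood 0.35 above it, with the others between -0.47 and 0.06.

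**Figure D3:**
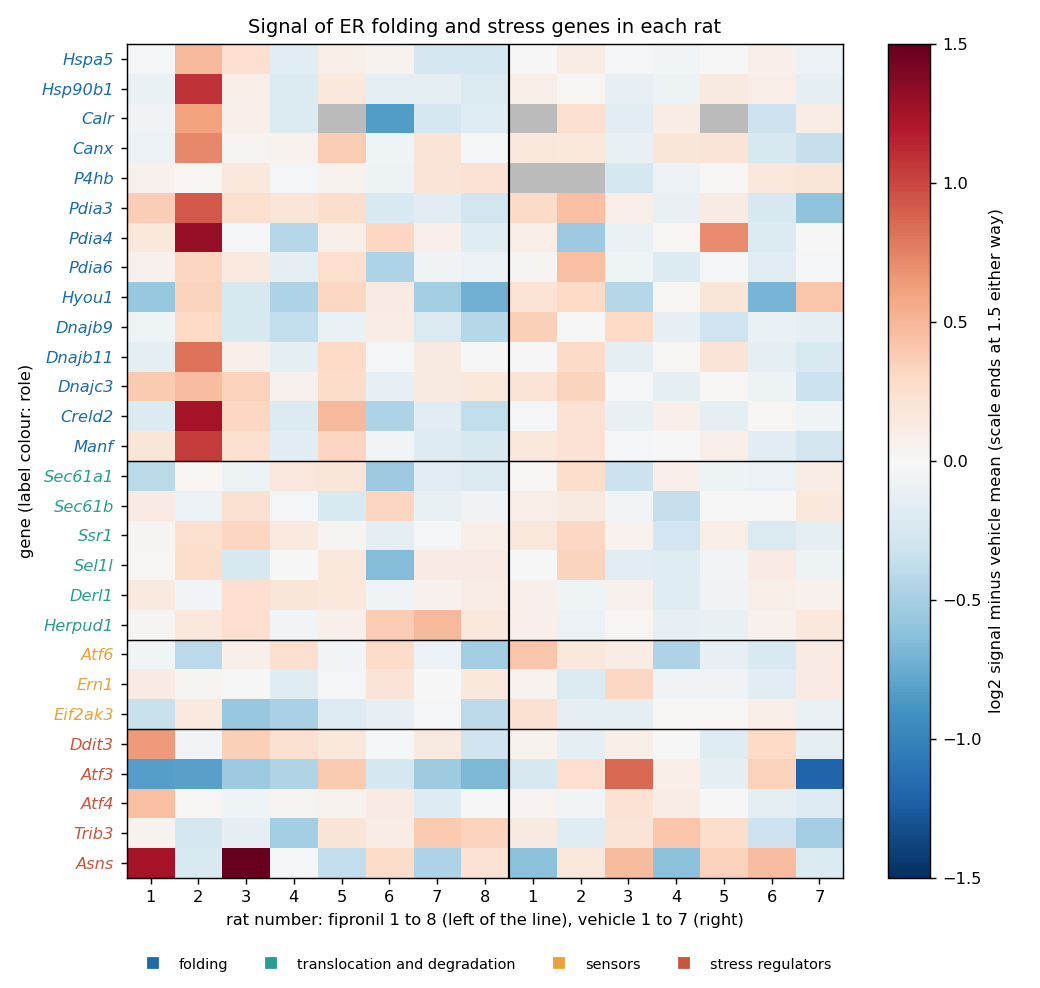
Deviation of each tested member from the vehicle mean, on the log2 scale, in each fipronil rat (1 to 8, left) and vehicle rat (1 to 7, right), ordered by role; grey cells are missing and the scale ends at 1.5 either way. Fipronil rat 2 is red over all 14 folding members (median 0.66) and mixed in the regulators, and Asns in fipronil rat 3 is off the scale at 2.36.

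The spread between rats was compared next. The SD was larger with fipronil in 12 of 14 folding members, against 56.6% of all features, but in 6 of 14 without fipronil rat 2, against 51.4% of all features. For Hspa5 the SD was 0.26 with fipronil and 0.07 with vehicle, and 0.19 without rat 2. For Creld2, a secreted protein induced by ER stress, it was 0.57 and 0.12, and 0.35 without rat 2. In Creld2 no fipronil rat lay within the vehicle range: 3 were above it and 5 below. For Hsp90b1 it was 0.43 and 0.11, and 0.15 without rat 2, and for Manf 0.42 and 0.18, and 0.23 without it. Creld2 and Manf were chosen after their values were seen. The difference in spread was not tested.

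Covariation from rat to rat was measured against Hspa5 alone. Each of the 27 other tested members was correlated with Hspa5 after removal of each group's mean, with permutation within groups and adjustment over the 27 pairs. By Pearson r, 4 of 13 folding members and none of the other 14 members passed an adjusted p of 0.05, and by Spearman rho 2 folding members did. The share of all array features that would pass against Hspa5 was not measured, so these counts have no background. The median r was 0.55 over the 13 folding members, from -0.18 for P4hb to 0.88 for Manf, 0.11 over translocation and degradation, -0.05 over sensors and 0.08 over regulators. Manf had the highest r, 0.88 (Spearman rho 0.81; permutation p = 0.000480 and 0.00194, adjusted p = 0.00675 and 0.0262). Hsp90b1 had an r of 0.85 (rho 0.76; permutation p = 0.000500 and 0.00167, adjusted p = 0.00675 and 0.0262). Creld2 had an r of 0.83 (rho 0.72; permutation adjusted p = 0.0486 and 0.124) and Pdia3 an r of 0.68 (rho 0.56; permutation adjusted p = 0.0486 and 0.227). After removal of slide means the r with Manf was 0.85 and that with Hsp90b1 0.84 (permutation adjusted p = 0.00594 for both). Creld2 had 0.81 (permutation adjusted p = 0.0188), and Pdia3 no longer passed, at 0.52 (permutation adjusted p = 0.289). With array brightness regressed out Pdia3 did not pass either (r 0.66, permutation adjusted p = 0.0703).

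The 4 calls rest on fipronil rats 2 and 8, the rats farthest from the median of Hspa5. Without them 0 of the 27 pairs passed (smallest permutation adjusted p = 0.215). Leaving out the extremes of Hspa5 narrows its range and leaves 13 rats, so a smaller r is partly built into this step. The r was then 0.68 for Manf (permutation p = 0.0159, unadjusted), 0.65 for Hsp90b1 (permutation p = 0.0127, unadjusted), 0.55 for Creld2 and 0.37 for Pdia3. Within the 7 vehicle rats, given as a description, the r was 0.63 for Creld2, 0.59 for Hsp90b1, 0.59 for Pdia3 and 0.47 for Manf. It was below 0 for Pdia4 (-0.52), Hyou1 (-0.31) and Calr (-0.10, over the 5 vehicle rats with a Calr value). The values of each pair come from the same array and share its scaling. The Hspa5 value of fipronil rat 2 comes from a saturated spot and is a lower bound. It was kept in the correlations over all rats.

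**Figure D4:**
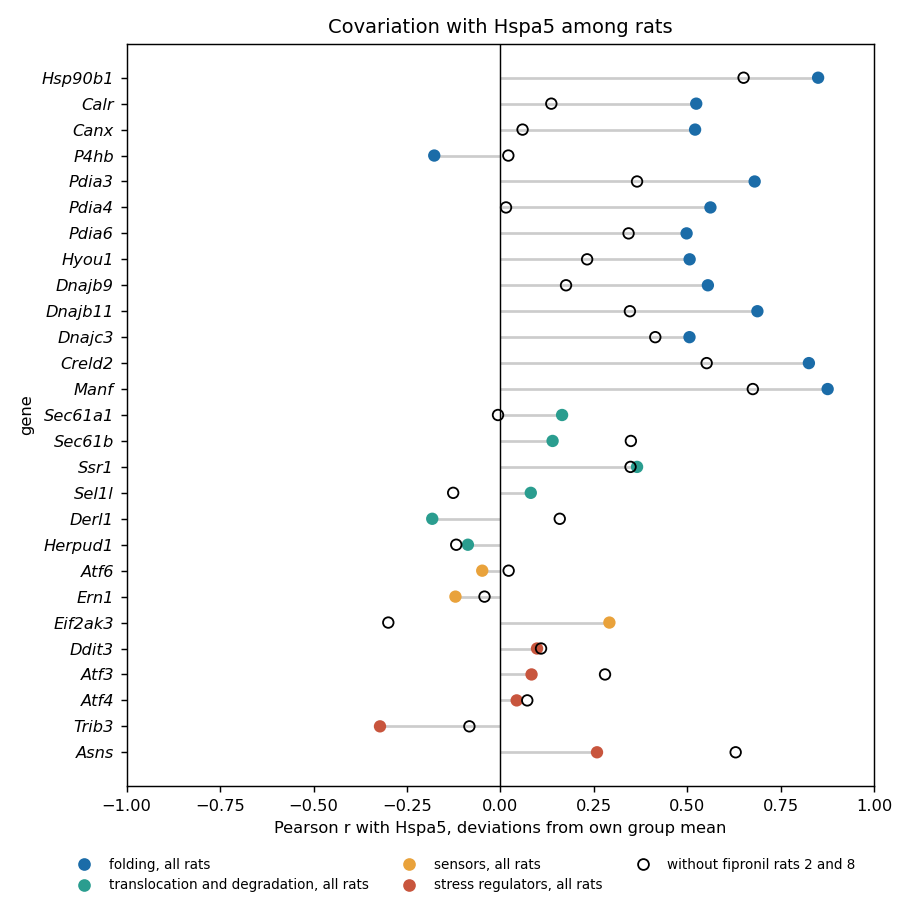
Pearson r of each member with Hspa5 over rats after removal of group means, all rats as filled points coloured by role and without fipronil rats 2 and 8 as open circles. Filled points of folding members reach 0.88 (Manf), and their open circles lie nearer 0, at 0.68 for Manf.

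Further genes of the pathway, listed with earlier results known, gave 0 calls by limma. In the ATF4 arm 0 of 20 tested genes passed, 1 in each direction at an unadjusted p under 0.05; Slc3a2, a subunit of amino acid exchangers, was at 0.36 (SE 0.11; limma adjusted p = 0.118) and Shmt2, a mitochondrial serine enzyme, at -0.22. In ER folding and degradation 0 of 29 passed, again 1 in each direction unadjusted; Ganab, a glucosidase that trims new glycans, was at -0.21 (limma adjusted p = 0.148) and Ufd1, a partner of the segregase p97, at 0.21. In translocation and glycosylation 0 of 24 passed and none at an unadjusted p under 0.05, with the oligosaccharyltransferase subunits Rpn2 at 0.16 and Stt3a at 0.18. Of the cytosolic and mitochondrial heat shock genes, which answer to HSF1 and not to the ER, 0 of 14 passed and 1 was lower unadjusted; Dnajb1 was at -0.25 (limma adjusted p = 0.267) and Hspa1a at -0.73 (SE 0.36; limma adjusted p = 0.302).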

How the data were processed

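Liver RNA with integrity numbers above 8.7 was labelled with Cy3, 1 array per rat, per the labels' protocols. The deposited files hold spot intensity written by Agilent Feature Extraction 9.5.3.1, background-subtracted and detrended, with no normalization across arrays, per the file headers. The authors' deposited value table holds log2 values and served as an alternative. Outlier spots were left out, spots of a probe averaged, and log2 intensity set relative to each array's 75th percentile. Features flagged above background on 7 or more arrays and missing on at most 3 were tested with limma 3.58.1 (R 4.3.3, lmFit and eBayes, two-sided, Benjamini-Hochberg over 20300 features, threshold 0.05). Correlations used 100000 permutations. The members and lists were chosen with earlier results of these data known. Values were printed for the 10 members with the smallest p and for Hspa5, Hsp90b1, the sensors and the stress regulators, and for the 2 leading genes of each wider list. Probe coordinates are of build rn4, per the file headers; promoters are RefSeq, GRCr8. The number of arrays limits the precision. Alternatives covered normalization, filters, slides, brightness, replicates and saturation.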

Additional observations from a re-analysis of the deposited data

Results flagged for a closer look

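Single rats stood apart from the rest of their group in 7 of 57 groups of member values tested by Dixon's ratio. Chance flags about 1 in 20 groups where groups are independent. These groups come from the same rats, and 4 of the 7 flags are of 1 rat, so the count cannot be set against that rate. The share of flags of any rat over all features was not measured. Fipronil rat 2 was highest for Hsp90b1 (7.13; other fipronil rats 5.83 to 6.21), Pdia4 (4.50; 2.76 to 3.50), Dnajb11 (1.88; 0.91 to 1.36) and Manf (6.81; 5.52 to 6.08). It stood apart in this way in 4 of 13 folding members with 8 values and in 1.39% of all features. Vehicle rat 2 was highest for Pdia6 at 7.28. Vehicle rat 4 was lowest for Sec61b at 5.73. Fipronil rat 5 was highest for Atf3 at -0.85.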

How the results depend on the processing

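Calls over members and over the wider lists were 0 under every setting run, single rats left out included. The count over all features was 176, and 85 without a filter on dim features, 90 with the replicate block, 39 with array brightness as a covariate, 34 without slide 1 and 49 without slide 4, the slide exclusions being chosen after seeing the data; it ranged from 85 to 286 with single rats left out (85 without fipronil rat 8, 286 without vehicle rat 3). Deviations of rats with the same replicate number correlated at -0.05 to 0.37. Same-number rats shared a slide except for number 6, so these values cannot show whether the numbers pair the rats. The replicate block changed no member's call. The folding median was -0.066 with brightness as a covariate and ranged from -0.02 to 0.13 with single rats left out. The translocation and degradation median was 0.22 within slide 2 and ranged from 0.0026 to 0.09 with single rats left out; its sign turned within slide 1 (-0.061), within slide 3 (-0.028) and without slide 2 (-0.034). The folding median was -0.028 within slide 3. The median of sensors and stress regulators was -0.19 within slide 2 and -0.17 within slide 4, and ranged from -0.01 to 0.07. The causes were not tested. The values of single members were judged by the spread between rats or by their side of the threshold. Of 976 values 962 were labelled the same as the main value, 14 moved and 0 reversed. No member was called under any setting with a p. Values within slides carry no p, so no call could be reversed there. The brightness covariate left 10 members above 0 and 18 below; without fipronil rat 2 the split was 15 and 13. With Hspa5, 4 pairs passed, 3 with slide means removed (Pdia3 lost), 3 with brightness regressed out (Pdia3 lost) and 6 with normexp. Saturated spots set as missing left Hspa5 at -0.05.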
